A study of Mus musculus with 14 samples.

Results

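The response of mouse embryonic stem cells to doxycycline-induced Foxa2 was measured by RNA-seq in 4 of the 14 libraries of the series. The members were chosen by their sample titles: 2 libraries of Venus-positive cells (d2-FVFp) and 2 libraries of Venus-negative cells (d2-FVFn), sorted after the same treatment. All 4 came from 1 cell line, T119, with the genotype TetON-Foxa2-Venus. In this line a lentiviral EF1a promoter drives the Tet-On transactivator and a TRE promoter drives a fusion of Foxa2 and the fluorescent protein Venus. The parental cells were homozygous for a Sox17-Cherry reporter, and the 2 vectors carry resistance to puromycin and neomycin. Cells of both groups were grown on gelatin in ES medium with LIF and serum, and both had 40 ng/ml doxycycline for 48 h, so the groups differ by the sort on Venus and not by the drug. The other 10 libraries hold control and Foxa2 knockout cells at day 0 and day 3 of endoderm differentiation. The comparison of d2-FVFp with d2-FVFn addresses which genes Foxa2 raises or lowers in embryonic stem cells without differentiation signals. No source used here says that the 2 replicates of a group were separate cultures, so p-values measure only the spread between these samples.

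Foxa2 is a winged-helix transcription factor of the forkhead family that binds DNA in closed chromatin and is therefore called a pioneer factor. In the embryo it is made in definitive endoderm, in the node and notochord and in the floor plate, and it is later needed in liver, pancreas, lung and gut. Mouse embryonic stem cells in LIF and serum are held in a pluripotent state by Pou5f1, Sox2 and Nanog, and move through a formative state marked by Fgf5, Otx2 and the de novo DNA methyltransferases before they form germ layers.

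The 4 libraries held between 14142788 and 20397757 expected counts. Replicates correlated across genes with r of 0.984 (d2-FVFn) and 0.979 (d2-FVFp) on log2 CPM (counts scaled to the library total), and libraries of different groups with r of 0.931 to 0.943. Markers of the labelled cell type were present: Pou5f1 lay between 1020 and 1590 TPM (a level scaled for gene length and library total) and Nanog between 57.7 and 99.7 TPM in all 4 libraries. In such bulk samples, fewer cells of a type and less RNA per cell cannot be told apart.

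Foxa2 (chromosome 2, 148042877 to 148046969, GRCm38, protein-coding) was at 2.99 and 2.01 TPM in d2-FVFn and at 169 and 160 TPM in d2-FVFp. The groups did not overlap and the libraries of each group lay close together. The log2 fold change was 6.0 (SE 0.22, edgeR adjusted p = 0.000142). Reads of the Foxa2-Venus transgene are part of this count, and endogenous and induced Foxa2 cannot be told apart in it. The d2-FVFn libraries held 53 and 43 counts of Foxa2, so the reference group was not free of its RNA. Day 0 control cells of another line and culture, with a single working Foxa2 allele, had a mean of 0.135 TPM. Foxa3, a paralog made in endoderm and liver, stayed at 9.11 and 9.15 TPM in d2-FVFn and 10.5 and 8.92 TPM in d2-FVFp and was not called (log2 fold change 0.04, SE 0.22). Foxa1 did not reach the level needed for testing and was between 0.06 and 0.42 TPM in all 4 libraries.

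Of 12943 genes tested, 901 (6.96%) were higher and 190 (1.47%) were lower in d2-FVFp, at an edgeR adjusted p under 0.05 and more than a 2-fold change. The higher genes together made up 1.01% and 1.06% of all TPM in d2-FVFn and 2.98% and 3.75% in d2-FVFp. The lower genes fell from 0.471% and 0.515% of all TPM to 0.204% and 0.201%. Rises were also larger than falls: 203 higher genes but 9 lower genes changed by more than 8-fold. The number of calls depended on both Venus-negative libraries. Without d2-FVFn replicate 1, 456 genes were higher and 97 lower, and without d2-FVFn replicate 2, 489 were higher and 92 lower. A test against a 2-fold change called 221 higher and 12 lower in DESeq2, and 275 higher and 21 lower in edgeR.

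**Figure D1:**
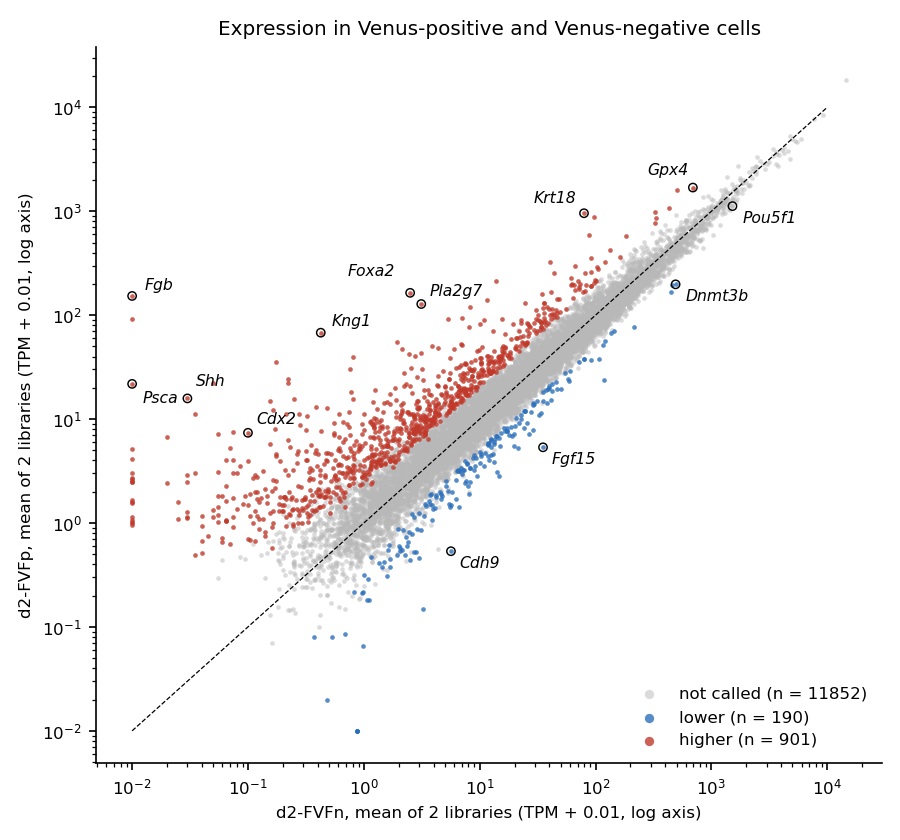
Mean level of each of the 12943 genes tested in d2-FVFn (x axis) and d2-FVFp (y axis), in TPM + 0.01 on log axes, with genes called higher in red (901), lower in blue (190) and not called in grey. The dashed line marks equal levels, and the red points reach far to the left, where genes had almost no reads in Venus-negative cells.

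Many of the genes that rose had been nearly silent. In d2-FVFn, 316 of the 901 higher genes (35.1%) had a mean under 1 TPM, beside 8.11% of all genes tested and 13 of the 190 lower genes (6.84%). Most of them stayed low: 25 genes went from under 1 TPM to 10 TPM or more, and 23 of the 901 were still under 1 TPM in d2-FVFp. The median higher gene went from 2.22 to 9.19 TPM. Lower genes were in most cases dampened and not shut off, with a median that went from 8.85 to 3.44 TPM and 33 genes that passed from at least 1 TPM to under 1 TPM. The share of higher genes that began under 1 TPM depends on which low genes can be called: it was 18.6%, beside 1.88% of the genes tested, when a mean count of at least 50 was required, 44% beside 33.4% without a filter, and 51.3% among the 275 genes past the edgeR test against a 2-fold change.

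**Figure D2:**
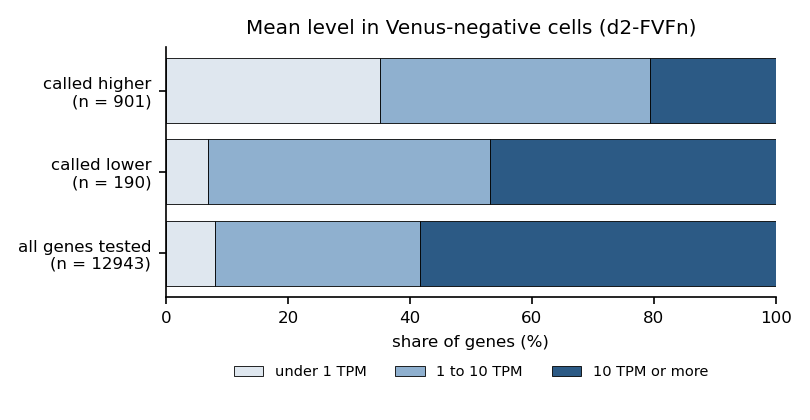
Share of genes (x axis, %) by mean level in d2-FVFn, for the 901 genes called higher, the 190 called lower and all 12943 tested. Genes under 1 TPM (palest) make up 35.1% of the genes called higher, 6.84% of those called lower and 8.11% of all.

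The gene with the largest fitted rise was Fgb, which encodes the beta chain of fibrinogen, a clotting protein secreted by liver (chromosome 3, 83042246 to 83049863). No read was assigned to Fgb in either d2-FVFn library, and it was at 97.2 and 208 TPM in d2-FVFp, about as high as Foxa2. Against a floor of 3 counts per library this is at least 679-fold higher (edgeR adjusted p = 0.00111). Fibrinogen is built from 3 chains encoded by neighbouring genes, and the other two did not follow. Fga was listed at 0 TPM in all 4 libraries. Fgg was at 1.55 and 0.77 TPM in d2-FVFn and 1.43 and 1.52 TPM in d2-FVFp (log2 fold change 0.32, SE 0.53).

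Kng1 and Kng2, which encode kininogens, the plasma precursors of bradykinin, also rose. Kng1 (chromosome 16, 23058220 to 23082078) went from 0.42 and 0.41 TPM to 43 and 92.5 TPM (log2 fold change 7.15, SE 0.5, edgeR adjusted p = 0.000831). Kng2 went from 0.19 and 0.29 TPM to 11.9 and 19.3 TPM (5.82, SE 0.46). The 2 genes are close copies, so the split of reads between them is uncertain. Bhmt, a liver and kidney enzyme that makes methionine from homocysteine, had 2 counts in all in d2-FVFn and was at 7.78 and 6.61 TPM in d2-FVFp, a depth-scaled count ratio of 144 (95% exact interval 39.4 to 1190, counting error only).

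Genes of quite different tissues stood beside them. Shh, the sonic hedgehog ligand, and Spdef, a transcription factor of goblet cells, are described with their lists. Syn2, a coat protein of synaptic vesicles, had no count in d2-FVFn and was at 4.91 and 5.42 TPM in d2-FVFp, at least 53.6-fold higher. Psca, a surface protein of stomach, bladder and prostate epithelium, had no count in d2-FVFn and was at 13.4 and 30.1 TPM, at least 51.3-fold higher. The lncRNA gene AW112010 had no count in d2-FVFn and was at 63.5 and 121 TPM, at least 196-fold higher. The rule that named these genes required that the groups not overlap.

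Receptors and neuroendocrine genes were also among the 25 largest rises. Tacr1, the receptor of substance P, had 1 count in d2-FVFn and was at 4.81 and 8.58 TPM in d2-FVFp. Npy, which encodes the neuropeptide Y precursor, had 2 counts in d2-FVFn and was at 12 and 36.5 TPM in d2-FVFp, a depth-scaled ratio of 124 (95% exact interval 34 to 1030). Tph1, the first enzyme of serotonin synthesis outside the brain, went from 0.2 and 0.34 TPM to 8.45 and 8.98 TPM (5.85, SE 0.4). Fcgr3, a low-affinity receptor for IgG, went from 0.26 and 0.07 TPM to 29.8 and 41.9 TPM (7.68, SE 0.45), and Cd14, the coreceptor for bacterial lipopolysaccharide, from 0.08 and 0.33 TPM to 8.22 and 14.1 TPM (5.62, SE 0.59). Both are best known from myeloid cells.

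The remaining large rises covered several functions. Pla2g7, a secreted phospholipase that inactivates platelet-activating factor, was already at 3.36 and 2.88 TPM and reached 110 and 145 TPM (5.31, SE 0.22, edgeR adjusted p = 0.000151). Cd82, a tetraspanin of the cell surface, went from 0.76 and 0.84 TPM to 27.3 and 51.7 TPM (5.56, SE 0.41), and Upk1b, a tetraspanin of the bladder lining, from 0.2 and 0.22 TPM to 12.3 and 32.1 TPM (6.63, SE 0.65). Eya2, a transcriptional coactivator, went from 0.2 and 0.12 TPM to 6.2 and 9.85 TPM (5.61, SE 0.47), and Egflam, which encodes the matrix protein pikachurin, from 0.07 and 0.06 TPM to 5.55 and 9.54 TPM (6.77, SE 0.47). Isg20, an exonuclease induced by interferon, had 3 counts in d2-FVFn and was at 9.2 and 15.1 TPM in d2-FVFp (ratio 80.9, 27.3 to 396). The lncRNA gene AU040972 had 3 counts in d2-FVFn and was at 12.8 and 17 TPM in d2-FVFp.

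Eif3j1, which encodes a subunit of a translation initiation factor, also met the rule for large rises, from 0 and 0.08 TPM to 33.1 and 11.5 TPM, but its reads are shared with a near-identical copy, Eif3j2. Eif3j2 was at 154 and 172 TPM in d2-FVFn and at 111 and 125 TPM in d2-FVFp. The sum of both was 154 and 172 TPM in d2-FVFn and 144 and 136 TPM in d2-FVFp, so the rise of Eif3j1 is uncertain.

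Promoter sequence is shown for the first 6 genes, in order of their rise, whose RefSeq promoter (GRCm38.p6, 250 bases before to 50 after the start) holds the forkhead core TGTTTAC on either strand. The core is a form of the site that Foxa proteins bind, and the 6 genes are shown because they rose with Foxa2. Each sequence runs 5′ to 3′ on the strand of its gene, with the core in capitals, which reads GTAAACA where it lies on the opposite strand. All 6 lie upstream of the start used in the promoter table.
Cdx2, chr5:147307263-147307309, minus strand: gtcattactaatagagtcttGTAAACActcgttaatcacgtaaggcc
Ltb, chr17:35194363-35194409, plus strand: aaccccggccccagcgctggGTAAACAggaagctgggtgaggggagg
Axl, chr7:25788936-25788982, minus strand: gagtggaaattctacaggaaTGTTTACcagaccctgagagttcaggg
Akr1c13, chr13:4191139-4191185, plus strand: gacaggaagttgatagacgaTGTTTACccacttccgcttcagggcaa
Rbp4, chr19:38125536-38125571, minus strand: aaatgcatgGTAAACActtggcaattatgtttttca
Pcsk1, chr13:75089793-75089839, plus strand: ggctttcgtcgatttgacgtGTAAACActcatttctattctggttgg

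Counted from the start in that table, the first base of the core lay 40 bases before the start in Cdx2, 124 in Ltb, 229 in Axl, 28 in Akr1c13, 241 in Rbp4 and 44 in Pcsk1. For Axl, Akr1c13 and Pcsk1 this start differs from the outer edge of the annotated gene, and in Pcsk1 the core lies inside that edge. Ltb encodes the membrane partner of lymphotoxin alpha and rose from a mean of 3.13 to 43.5 TPM (log2 fold change 3.74, SE 0.31). Axl, a receptor tyrosine kinase for Gas6, rose from 1.68 to 17.3 TPM (3.35, SE 0.39), and Akr1c13, an aldo-keto reductase with close copies in the genome, from 1.13 to 9.38 TPM (3.02, SE 0.5). Over all genes in the promoter table, 1095 of 27025 (4.05%) hold the core. A promoter was found for 75.6% of the higher genes and 79.2% of all genes tested, both below 80%, so the comparison of shares between called genes and other genes is void and is not given. These letters are a description and do not show binding.

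Among regulators of definitive endoderm, 5 of 8 tested genes (62.5%) rose, beside 6.96% of all genes tested, and none fell. The median log2 fold change was 2.11 beside 0.01 over all genes tested. Gata6, Lhx1 and Cer1 were under 1 CPM in both d2-FVFn libraries, so they were tested only because of their reads in d2-FVFp. The 4 listed genes not tested are left out of the share, which raises it. Gata6, a zinc finger factor needed for endoderm, went from 0.11 and 0.18 TPM in d2-FVFn to 6.73 and 4.71 TPM in d2-FVFp (5.19, SE 0.44, edgeR adjusted p = 0.00148). Its relative Gata4 went from 0.95 and 0.85 TPM to 6.21 and 5 TPM (2.59, SE 0.3, adjusted p = 0.00338 by edgeR). The other risers were Lhx1, Eomes and Cer1, which encode a homeobox factor, a T-box factor and a secreted Nodal and Bmp antagonist. All 3 remained at or under 3.23 TPM in each d2-FVFp library. Sox17, the factor that marks definitive endoderm, was between 0.12 and 0.59 TPM in all 4 libraries, and Gsc, Dkk1 and Cxcr4 were also too low for testing. Hhex, at 6.75 and 5.59 TPM against 10.1 and 5.35 TPM, was not called. The count was 2 without d2-FVFn replicate 1, where Lhx1 (edgeR adjusted p = 0.101), Eomes (0.0717) and Cer1 (0.0615) missed the threshold, and 3 without d2-FVFn replicate 2. Without d2-FVFp replicate 1, Lhx1 was lost (0.0664). Gata5, another of these zinc finger factors, rose from 3 counts in d2-FVFn to 1.99 and 1.66 TPM in d2-FVFp, a ratio of 39.1 (95% exact interval 13 to 193).

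Transcription factors of liver and gut were mostly silent in both groups. Of 20 listed, 9 could be tested, of which 3 rose (33.3%) and 1 fell (11.1%), beside 6.96% and 1.47% of all genes tested. The 3 that rose, Sox9, Cdx2 and Prox1, were under 1 CPM in both d2-FVFn libraries. They were tested only because of their reads in d2-FVFp. The 11 listed genes not tested are left out of the shares, which raises them. Sox9, a factor of gut and pancreas progenitors and of cartilage, went from 0 and 0.12 TPM to 4.74 and 5.68 TPM (6.27, SE 0.63, edgeR adjusted p = 0.00211). Cdx2, the homeobox factor of intestine and trophectoderm, went from 0 and 0.18 TPM to 7.44 and 7.29 TPM (chromosome 5, 147300900 to 147307249; 6.1, SE 0.66, edgeR adjusted p = 0.00262). Prox1, a homeobox factor of liver progenitors and lymphatic endothelium, went from 0 and 0.09 TPM to 1.39 and 2.25 TPM (5.06, SE 0.79). Nr5a2, a nuclear receptor that also acts on Pou5f1 in stem cells, fell from 2.76 and 1.5 TPM to 0.7 and 0.38 TPM (log2 fold change -2.04, SE 0.51, edgeR adjusted p = 0.0347), and missed the threshold without d2-FVFn replicate 1 (adjusted p = 0.168) or d2-FVFp replicate 2 (0.0843). Hnf4a, Onecut1 and Nr1h4, which act in hepatocytes, were at or under 0.25 TPM in every library. Klf5 and Elf3, epithelial factors already made in stem cells, did not pass (log2 fold changes -0.18, SE 0.17, and 0.25, SE 0.2).

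The ligand Shh showed the clearest switch among genes of node, notochord and floor plate. Shh (chromosome 5, 28456840 to 28467101) had a single count over both d2-FVFn libraries and was at 15.5 and 16.1 TPM in d2-FVFp (edgeR adjusted p = 0.000274). The depth-scaled count ratio was 824 (95% exact interval 147 to 32600, counting error only). Foxj1, the master factor of motile cilia that acts in the node, rose from 1.67 and 2.05 TPM to 18.9 and 21 TPM (3.37, SE 0.23), and Chrd, which encodes the Bmp antagonist chordin, from 0.35 and 0.94 TPM to 6.24 and 5.79 TPM (3.15, SE 0.43). Spon1, a matrix protein of the floor plate, fell from 3.9 and 8.53 TPM to 1.45 and 1.98 TPM (-1.9, SE 0.39), a call that was lost without d2-FVFn replicate 2 (edgeR adjusted p = 0.0902). In total 3 of 7 tested genes of this list rose (42.9%) and 1 fell (14.3%), beside 6.96% and 1.47% of all genes tested. Shh was under 1 CPM in both d2-FVFn libraries, so it was tested only because of its reads in d2-FVFp. The 8 listed genes not tested are left out of the shares, which raises them. T and Noto, which mark the notochord, stayed at or under 0.6 TPM in every library and were not tested.

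None of the hedgehog target genes on the list was called with the ligand, and their values had both signs. Ptch1, the receptor that pathway activity induces, was at 8.17 and 7.02 TPM in d2-FVFn and 7.24 and 6.49 TPM in d2-FVFp (log2 fold change -0.19, SE 0.2, edgeR adjusted p = 0.527). Gli1, an effector that is itself a target, was at 8.82 and 5.35 TPM in d2-FVFn and 4.06 and 2.15 TPM in d2-FVFp (-1.24, SE 0.37, adjusted p = 0.0614 by edgeR). Gli2, another effector, also had a negative value that did not pass (-1.39, SE 0.45). Hhip, an inhibitor that pathway activity induces, had a positive value that did not pass, from 0.11 and 0.13 TPM to 0.25 and 0.72 TPM (1.97, SE 0.62, edgeR adjusted p = 0.0687). Smo and Sufu, which pass the signal on, were at 13.5 to 22.7 TPM in all 4 libraries. Of 14 tested pathway genes, Shh and the coreceptor gene Boc were called higher (14.3%, beside 6.96% of all genes tested). None was called lower, and the median log2 fold change was -0.07. As given above, Shh entered the test only through d2-FVFp. Boc (1.52, SE 0.4, edgeR adjusted p = 0.0417) missed the threshold without any one of the 4 libraries, at adjusted p of 0.0514 to 0.201. Without a filter 4 genes of the list were higher and 2 lower, and the same counts came from the fit that blocks on replicate.

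**Figure D3:**
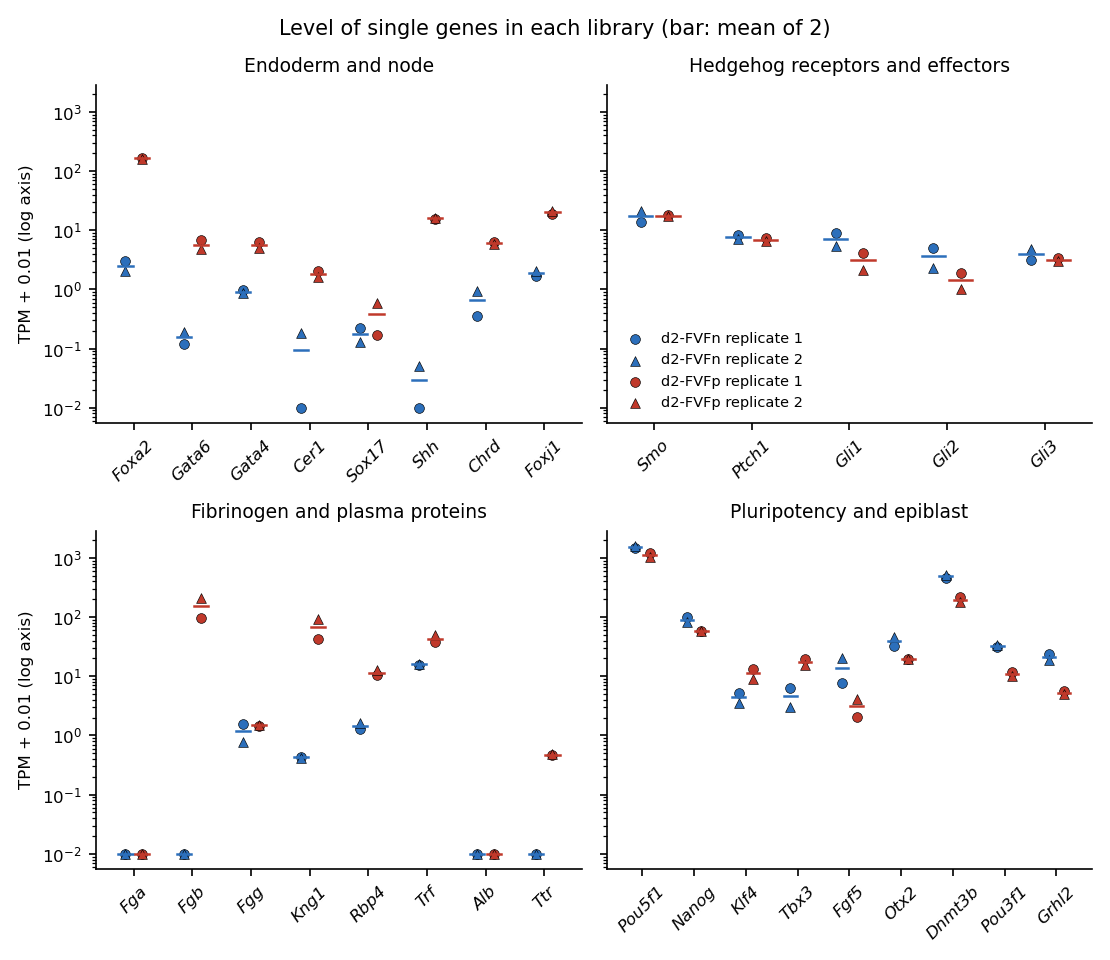
Level of single genes in each library, in TPM + 0.01 on a log axis, with d2-FVFn in blue and d2-FVFp in red, circles for replicate 1, triangles for replicate 2 and bars for the mean of 2. Points at the bottom are genes at 0 TPM. Shh lies far apart between the groups while Smo, Ptch1 and Gli3 overlap or nearly overlap, and Fgb rises while Fga and Fgg do not.

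Plasma proteins of the liver formed the list with most members called higher. Of 16 tested genes 9 rose (56.2%, beside 6.96% of all genes tested) and none fell, with a median of 1.67. Fgb, Apoa1, Apom, Vtn, C3 and Rbp4 were under 1 CPM in both d2-FVFn libraries, so they were tested only because of their reads in d2-FVFp. The 14 listed genes not tested are left out of the share, which raises it. Trf, which encodes the iron carrier transferrin, went from 15.7 and 16 TPM to 37.8 and 49 TPM (1.41, SE 0.18, edgeR adjusted p = 0.00465). Rbp4, the retinol carrier of plasma, went from 1.29 and 1.61 TPM to 10.5 and 12.6 TPM (2.95, SE 0.39). The apolipoprotein genes Apoa1, Apob and Apom, the coagulation factor gene F5, the complement gene C3 and Vtn, which encodes the adhesive protein vitronectin, rose too but reached at most 6.75 TPM. Apom had 3 counts in d2-FVFn (ratio 27.8, 95% exact interval 9.12 to 138) and Vtn 2 (38.7, 10.3 to 326).

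Other hallmarks of hepatocytes were at 0 or very low. Alb, Ambp, Serpina1a and Fga were at 0 TPM in all 4 libraries, and Ttr, which is often used as an early endoderm and liver marker, was at 0 TPM in both d2-FVFn libraries and 0.45 and 0.48 TPM in d2-FVFp, too low for testing. Other untested genes also had more reads in d2-FVFp: Hpx, which encodes the heme carrier hemopexin, had no count in d2-FVFn and 8 and 15 in d2-FVFp, Afp, the fetal counterpart of albumin, had 1 and 0 and then 10 and 9, and Masp1, a protease of the complement system, had 0 and 2 and then 6 and 49. Apoe and Apoa2, which stem cells already made, were not called (0.65, SE 0.31, and -0.82, SE 0.27). The number of plasma protein genes called was 1, Fgb, in the DESeq2 test against a 2-fold change and 4 in the edgeR one, and it was 5 without d2-FVFn replicate 1, where Apoa1 (edgeR adjusted p = 0.0591), Apob (0.0874), F5 (0.0833) and C3 (0.125) were lost. F5 also missed the threshold without d2-FVFn replicate 2 (0.0704) or d2-FVFp replicate 2 (0.0513). Without d2-FVFp replicate 1, C3 alone was lost from the 9 (0.0726). Of 17 genes of hepatic metabolism only 3 were high enough for testing. Abcc3, an export pump for bile salt conjugates, rose (2.1, SE 0.43) and Pdk4, a kinase that inhibits pyruvate dehydrogenase, fell (-1.56, SE 0.32). Both calls were lost without either d2-FVFn library (log2 fold changes of 1.91 and 2.29 for Abcc3, -1.49 and -1.66 for Pdk4).

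Keratin genes changed more often than any other family of at least 8 tested members. Of 10 tested, 5 rose and 2 fell, beside 6.96% and 1.47% of all genes tested. Krt6a and Krt75 were under 1 CPM in both d2-FVFn libraries and entered the test only through d2-FVFp, which raises the share. Krt8 and Krt18, which encode the paired filaments of simple epithelia, went from 72.8 and 120 TPM to 487 and 1280 TPM (3.15, SE 0.45, edgeR adjusted p = 0.0062) and from 65 and 94 TPM to 542 and 1370 TPM (3.54, SE 0.42). Their levels in d2-FVFp replicate 2 were more than 2-fold those in replicate 1, while the groups stayed clearly apart. Krt7, made in ducts and trophoblast, went from 8.23 and 8.16 TPM to 84.9 and 155 TPM (3.82, SE 0.31). These genes lie in the type II keratin cluster of chromosome 15, and Krt7, Krt75, Krt6a, Krt8 and Krt18 were 5 tested genes in a row that were all called higher (101412403 to 102032026). Krt75 remained under 1 TPM and lost its call without either d2-FVFn library (edgeR adjusted p = 0.0516 and 0.065), and Krt6a, with a close copy in the genome, had no count in d2-FVFn and 1.07 and 3.91 TPM in d2-FVFp, at least 16.1-fold higher. Krt17, a keratin of stressed epithelia, and Krt42 are type I genes on chromosome 11 and fell (-1.92, SE 0.21, and -1.6, SE 0.31). Krt42 missed the threshold without d2-FVFn replicate 1 (edgeR adjusted p = 0.098).

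Junction genes moved less. On the list of epithelial keratins and junctions 6 of 22 tested genes rose (27.3%) and 1 fell (4.55%), beside 6.96% and 1.47% of all genes tested. Cldn10 was under 1 CPM in both d2-FVFn libraries, so it was tested only because of its reads in d2-FVFp. The claudin genes Cldn4 (37.3 and 33.8 to 100 and 161 TPM), Cldn3 and Cldn10, whose products seal tight junctions, rose. Cldn3 missed the threshold without either d2-FVFn library or without d2-FVFp replicate 2 (edgeR adjusted p of 0.0507 to 0.164) and Cldn10 without d2-FVFn replicate 1 (0.0555). Cdh1 and Epcam, the adhesion proteins that stem cells share with epithelia, were at 540 to 657 TPM and 175 to 222 TPM in all 4 libraries and were not called (0.08, SE 0.12, and -0.09, SE 0.14). Grhl2, a factor that keeps epithelial genes open and acts in the formative state, fell from 23.7 and 19.1 TPM to 5.59 and 4.93 TPM (-2.07, SE 0.19, edgeR adjusted p = 0.00184).

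Of 7 tested genes of mucosal secretion 4 rose (57.1%, beside 6.96% of all genes tested). Spdef and Psca were under 1 CPM in both d2-FVFn libraries, so they were tested only because of their reads in d2-FVFp. The 8 listed genes not tested are left out of the share, which raises it. Spdef had 1 count in d2-FVFn and was at 7.89 and 14.6 TPM in d2-FVFp, a depth-scaled ratio of 407 (95% exact interval 72.6 to 16100). Clu, the secreted chaperone clusterin, went from 38.6 and 48.1 TPM to 171 and 336 TPM (2.5, SE 0.31, edgeR adjusted p = 0.00371). Psca is given above, and Tspan8, a tetraspanin of gut epithelium, rose from 2.31 and 1.77 TPM to 5.07 and 11.2 TPM (1.98, SE 0.47) but held its call only without d2-FVFp replicate 1 (edgeR adjusted p of 0.1 to 0.137 in the other three cases). The mucin genes Muc4 and Muc13 were at or under 0.14 TPM in all 4 libraries, and Tff2, a trefoil peptide gene, was at 0 TPM in d2-FVFn and 1.01 and 1.08 TPM in d2-FVFp, under the level tested.

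Of 16 tested genes of regulated exocytosis and islets 6 rose (37.5%, beside 6.96% of all genes tested) and none fell. Syn2, Mlph and Sytl2 were under 1 CPM in both d2-FVFn libraries, so they were tested only because of their reads in d2-FVFp. The 8 listed genes not tested are left out of the share, which raises it. Beside Syn2, Rab3b, a small GTPase of secretory vesicles, went from 2.65 and 2.13 TPM to 9.78 and 13.6 TPM (2.24, SE 0.26). Pcsk1, the protease that cuts prohormones such as proinsulin, went from 1.06 and 1.3 TPM to 6.16 and 7.24 TPM (2.45, SE 0.31, edgeR adjusted p = 0.00422). Mlph, which links Rab27a to a myosin motor, went from 0.08 and 0.17 TPM to 3.19 and 3.09 TPM (4.55, SE 0.45), and Rab27a itself from 9.02 and 4.87 TPM to 22.1 and 18.1 TPM (1.49, SE 0.3). Sytl2, another Rab27 partner, rose as well (2.76, SE 0.47). Without d2-FVFn replicate 2, Rab27a (edgeR adjusted p = 0.0853) and Sytl2 (0.0623) were lost. The potassium channel and glucose transporter genes of beta cells, Kcnj11 and Slc2a2, stayed at or under 0.11 TPM, and the granule protein gene Chga had a negative value that did not pass (-0.79, SE 0.23, edgeR adjusted p = 0.0543).

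Extraembryonic endoderm shares Gata4 and Gata6 with definitive endoderm, and 8 of 18 tested genes of that list rose (44.4%, beside 6.96% of all genes tested). None was called lower, and the median was 0.58. Gata6, Pdgfra, Foxq1 and Srgn were under 1 CPM in both d2-FVFn libraries, so they were tested only because of their reads in d2-FVFp. Col4a1 and Col4a2, which encode the 2 main chains of basement membrane collagen from a shared promoter region, rose together from 7.14 and 9.09 TPM to 78.5 and 74.5 TPM (3.19, SE 0.16, edgeR adjusted p = 0.000269) and from 1.63 and 1.72 TPM to 12.6 and 15.6 TPM (3.03, SE 0.2). Cited1, a transcriptional coregulator, went from 4.41 and 6.12 TPM to 68.5 and 117 TPM (4.11, SE 0.34). The basement membrane laminin genes of the same tissue did not follow: Lamb1 was at 43 and 43 TPM in d2-FVFn and 31.3 and 30 TPM in d2-FVFp (-0.54, SE 0.12, edgeR adjusted p = 0.0279, under 2-fold), Lamc1 at 50 and 33.3 TPM and 64 and 47.6 TPM (0.37, SE 0.22), and Lama1 had -0.83 (SE 0.27). Sox7, a defining factor of that lineage, was at or under 0.49 TPM in all 4 libraries, and Dab2 was not called (-0.28, SE 0.32). Pdgfra (3.55, SE 0.73), a receptor of primitive endoderm, remained at or under 1.99 TPM and was lost without either d2-FVFn library or d2-FVFp replicate 2 (edgeR adjusted p of 0.0602 to 0.102).

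**Figure D4:**
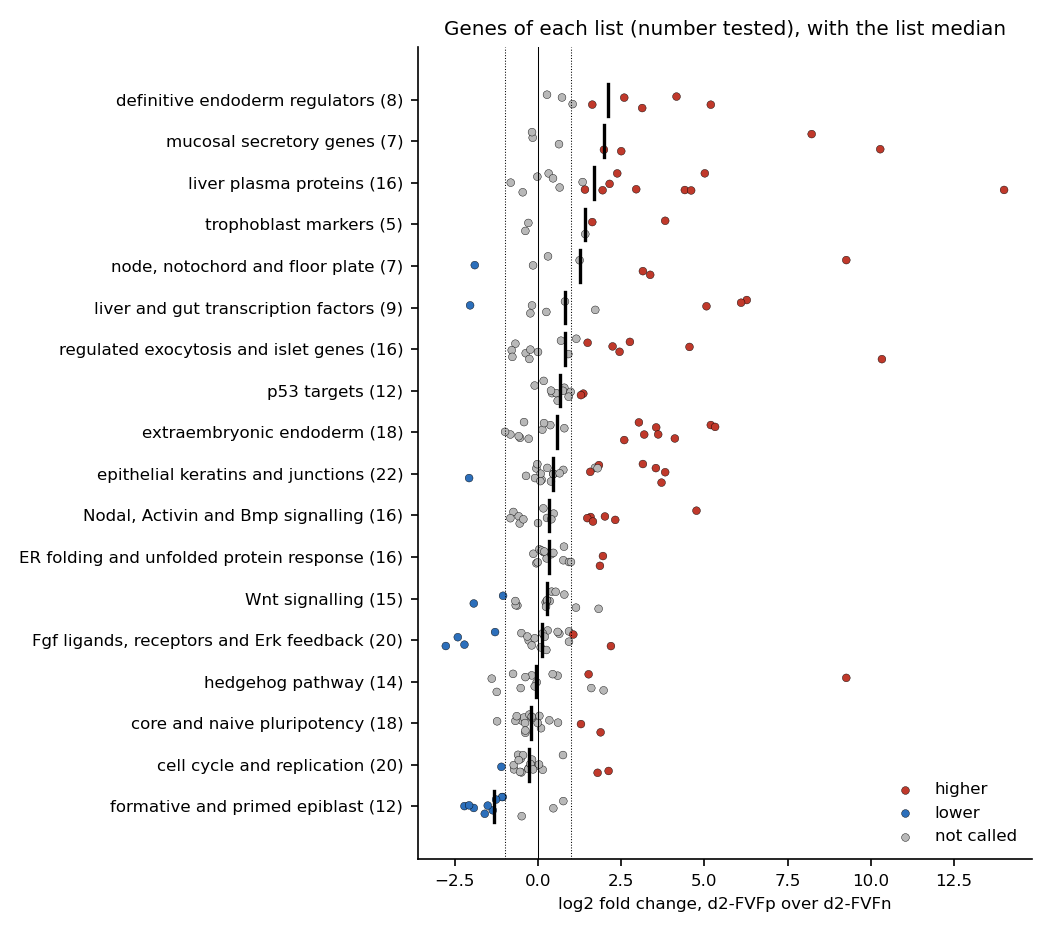
Log2 fold change of d2-FVFp over d2-FVFn (x axis) for the tested genes of 18 lists, with the number tested in brackets, genes called higher in red, lower in blue and not called in grey, and a bar at each median. Dotted lines mark 2-fold changes, and the points farthest right are genes with at most 1 count in d2-FVFn, whose fitted values depend on the prior count. The formative and primed epiblast list has the lowest median (-1.31) and the definitive endoderm list the highest (2.11).

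Of 18 tested genes of core and naive pluripotency none was called lower and 2 were called higher (11.1%, beside 6.96% of all genes tested). The median was -0.23. Pou5f1 was at 1450 and 1590 TPM in d2-FVFn and 1220 and 1020 TPM in d2-FVFp (-0.48, SE 0.12, edgeR adjusted p = 0.0386), and Nanog at 99.7 and 81.2 TPM and 58.6 and 57.7 TPM (-0.68, SE 0.15, edgeR adjusted p = 0.0276). Both passed adjustment in the negative direction without reaching a 2-fold change. Sox2, Zfp42 and Esrrb did not pass adjustment. The genes called higher were Klf4 and Tbx3, factors of the naive state, at 5.29 and 3.56 against 13.3 and 9.08 TPM (1.29, SE 0.29) and at 6.21 and 3.04 against 19.8 and 15.3 TPM (1.88, SE 0.33). Klf4 missed the threshold without either d2-FVFn library or d2-FVFp replicate 1 (edgeR adjusted p of 0.06 to 0.16).

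Most of the formative and primed genes fell. Of 12 tested, 9 fell (75%, beside 1.47% of all genes tested) and none rose, with a median of -1.31. Dnmt3b and Dnmt3a, the de novo DNA methyltransferases, went from 464 and 519 TPM to 218 and 178 TPM (-1.36, SE 0.13, edgeR adjusted p = 0.00197) and from 161 and 129 TPM to 76 and 63.9 TPM (-1.08, SE 0.15, edgeR adjusted p = 0.00573). Pou3f1, a POU factor of the primed epiblast, went from 31.4 and 33.2 TPM to 11.7 and 10.2 TPM (-1.6, SE 0.16). Lef1, a nuclear effector of Wnt signalling, went from 29.7 and 28.1 TPM to 10 and 5.56 TPM (-1.93, SE 0.26). Fgf5, Otx2, Zic5, Sall2 and Grhl2 fell as well, while Sox3, Foxd3 and Cldn6 were not called. The groups did not overlap in any of the 9, but these genes were picked by their calls, so this adds no support. Without d2-FVFn replicate 2 the count was 5, as Fgf5 (edgeR adjusted p = 0.131), Otx2 (0.101), Zic5 (0.0891) and Sall2 (0.0703) were lost. The fall of Dnmt3a dropped below 2-fold without d2-FVFn replicate 1 or d2-FVFp replicate 2.

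Fgf15, Fgf17 and Fgf5 were among the 15 largest falls that met the naming rule. Fgf15, an endocrine Fgf of gut and early embryo, went from 30.7 and 39.6 TPM to 5.64 and 5.05 TPM (-2.77, SE 0.22, edgeR adjusted p = 0.00128). Fgf17, a ligand of the Fgf8 group, went from 17 and 12.2 TPM to 2.99 and 2.67 TPM (-2.41, SE 0.29). Fgf5 went from 7.71 and 20.3 TPM to 2.05 and 4.12 TPM (-2.21, SE 0.51). Fgf4, the main autocrine ligand of stem cells, was not called at 67.3 and 51.6 TPM against 55.6 and 31.1 TPM (-0.5, SE 0.27). Downstream genes were mixed. Etv1 fell (-1.29, SE 0.16), Etv4 and Etv5 were not called, and the immediate early genes Fos (14 and 7.01 to 52.1 and 46.4 TPM; 2.19, SE 0.31) and Egr1 (1.06, SE 0.26) rose. Egr1 lost its call without either d2-FVFn library or d2-FVFp replicate 1 (edgeR adjusted p of 0.0501 to 0.184). Dusp6, the feedback phosphatase of Erk, passed adjustment at 112 and 111 against 211 and 230 TPM, under 2-fold (0.93, SE 0.12, edgeR adjusted p = 0.00384). Over the list, 2 of 20 were called higher (10%) and 4 lower (20%), beside 6.96% and 1.47% of all genes tested.

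Some target genes of Bmp signalling rose, while the ligand genes were mixed. On the list of Nodal, Activin and Bmp signalling 6 of 16 tested genes rose (37.5%, beside 6.96% of all genes tested) and none was called lower. Bmp2 was under 1 CPM in both d2-FVFn libraries, so it was tested only because of its reads in d2-FVFp. The Bmp target genes Id1, Id3 and Smad6, which encode 2 inhibitors of bHLH factors and an inhibitory Smad, rose: Id1 from 90.8 and 90.3 TPM to 246 and 278 TPM (1.48, SE 0.14, edgeR adjusted p = 0.00196) and Id3 from 119 and 144 TPM to 379 and 474 TPM (1.65, SE 0.17). Smad6 (2.32, SE 0.37) missed the threshold without either d2-FVFn library (edgeR adjusted p = 0.0533 and 0.0517). The Bmp ligand genes that rose did so from low levels, Bmp7 from 1.2 and 1.54 TPM to 5.73 and 5.74 TPM (2.01, SE 0.27) and Bmp2 from 3 counts to 1.28 and 1.37 TPM. Bmp4, the most abundant Bmp ligand of the list in d2-FVFn, was at 22.5 and 9.89 TPM in d2-FVFn and 10.1 and 8.6 TPM in d2-FVFp and was not called (-0.83, SE 0.38). Id2 had a negative value that did not pass (-0.55, SE 0.18), and Smad7 and Bambi were not called (0.16, SE 0.17, and 0.4, SE 0.3). Nodal was at 54.8 and 49.2 TPM and 57.4 and 50.3 TPM (0, SE 0.15), while Lefty2, a secreted Nodal inhibitor, rose from 37.2 and 55 TPM to 136 and 149 TPM (1.58, SE 0.19). Tdgf1, the Nodal coreceptor, passed adjustment in the negative direction under 2-fold (-0.74, SE 0.1, edgeR adjusted p = 0.00593).

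Of 15 tested Wnt pathway genes none rose and 2 (13.3%, beside 1.47% of all genes tested) fell, Lef1 and Sfrp1, a secreted Wnt antagonist (-1.05, SE 0.21, edgeR adjusted p = 0.0175). Sfrp1 was lost without d2-FVFn replicate 2 (edgeR adjusted p = 0.129). Axin2, the common readout of the pathway, was at or under 1.41 TPM in all 4 libraries and was not called (-0.67, SE 0.45). Tcf7, a relative of Lef1, was at 16.2 to 24.8 TPM and was not called.

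The p53 targets shifted slightly upwards and replication genes slightly downwards. Of 12 tested p53 targets, 2 rose by more than 2-fold (16.7%, beside 6.96% of all genes tested). Cdkn1a, the cell cycle inhibitor p21, went from 58.8 and 73.2 TPM to 129 and 221 TPM (1.36, SE 0.25, edgeR adjusted p = 0.0142), and Perp, a desmosome protein, from 30.4 and 36.9 TPM to 68 and 102 TPM (1.29, SE 0.22). At an adjusted p under 0.05 with any fold 6 of 12 were positive and none negative, beside 9.96% and 6.57% of all genes tested. Both 2-fold calls were lost without d2-FVFn replicate 1 (edgeR adjusted p = 0.0836 and 0.0762) and fell under 2-fold without d2-FVFp replicate 2.

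On the cell cycle list 2 genes were called higher (10%) and 1 lower (5%) of 20, beside 6.96% and 1.47% of all genes tested. At an adjusted p under 0.05 with any fold, 7 were negative (35%) and 2 positive (10%), beside 6.57% and 9.96%. Mcm2, a subunit of the replicative helicase, was at 681 and 629 TPM in d2-FVFn and 429 and 391 TPM in d2-FVFp (-0.72, SE 0.11, edgeR adjusted p = 0.00729), and Pcna, the polymerase clamp, at 597 and 570 TPM and 397 and 408 TPM (-0.58, SE 0.11). The D cyclins went in different directions: Ccnd1 fell from 67.8 and 90.1 TPM to 38.4 and 37.8 TPM (-1.1, SE 0.16), Ccnd2 rose from 1.02 and 1.27 TPM to 3.12 and 7.18 TPM (2.12, SE 0.41), and Ccnd3 was not called (0.14, SE 0.17). Cdkn2a, an inhibitor of the D cyclin kinases, was called higher (1.79, SE 0.47, edgeR adjusted p = 0.0408) but not without any one of the libraries (adjusted p of 0.0709 to 0.168). Neither d2-FVFn library could be left out without losing Ccnd2 (edgeR adjusted p = 0.0869 and 0.0659), and without d2-FVFn replicate 2 Ccnd1 (0.0486) dropped below 2-fold. Mki67 and Plk1, genes of dividing cells, were not called (-0.28, SE 0.15, and -0.23, SE 0.11).

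In the secretory pathway Xbp1, the factor that expands the endoplasmic reticulum of secretory cells, rose from 45.8 and 37.1 TPM to 206 and 125 TPM (1.95, SE 0.25, edgeR adjusted p = 0.00404). Creb3l2, a membrane-bound factor of the same organelle, rose from 1.57 and 1.38 TPM to 5.26 and 5.85 TPM (1.86, SE 0.28), and missed the threshold without d2-FVFn replicate 2 (edgeR adjusted p = 0.0504). At an adjusted p under 0.05 with any fold 4 of the 16 tested genes of the list (25%) were positive and none negative. Over all genes tested the shares were 9.96% and 6.57%. Among the 4 were Sdf2l1, a chaperone partner (0.76, SE 0.16, edgeR adjusted p = 0.023), and Creb3l1, a relative of Creb3l2 (0.93, SE 0.22). The chaperone genes Hspa5, Hsp90b1 and Pdia4 and the stress factors Atf4 and Trib3 were not called, with log2 fold changes between -0.14 and 0.18, nor was the stress factor Ddit3 (0.78, SE 0.27). With the 2-fold limit 2 of 16 (12.5%, beside 6.96% of all genes tested) rose and none fell.

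The steepest fall that met the naming rule was that of Cdh9, a type II cadherin, from 4.68 and 6.61 TPM to 0.46 and 0.59 TPM (-3.45, SE 0.37, edgeR adjusted p = 0.00262). Car4, a membrane-bound carbonic anhydrase, fell from 88.5 and 149 TPM to 20.1 and 27.8 TPM (-2.36, SE 0.28). The forkhead gene Foxr2 fell from 6.1 and 7.11 TPM to 1.3 and 1.49 TPM (-2.28, SE 0.27). Fam111a, a protease that acts at replication forks, went from 21.8 and 17.7 TPM to 7.05 and 3.85 TPM (-1.91, SE 0.3). Calml4, Ccno, Soga3 and 4930526L06Rik completed the 15 largest falls beside genes given above, with log2 fold changes of -2.25, -2.03, -1.97 and -1.89. Without d2-FVFn replicate 1, Calml4 (edgeR adjusted p = 0.0755), Ccno (0.12) and 4930526L06Rik (0.098) were lost, and Ccno and 4930526L06Rik also without d2-FVFn replicate 2 or d2-FVFp replicate 2.

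The most abundant genes that fell, after Dnmt3b, were Slc7a3, a transporter of cationic amino acids, from 428 and 486 TPM to 197 and 194 TPM (-1.27, SE 0.12) and Ldhb, a subunit of lactate dehydrogenase, from 424 and 467 TPM to 170 and 163 TPM (-1.47, SE 0.12, edgeR adjusted p = 0.00128). Pla2g1b, a secreted phospholipase, fell from 220 and 213 TPM to 85 and 67.5 TPM (-1.56, SE 0.17), and Alpl, the tissue-nonspecific alkaline phosphatase that stains stem cell colonies, from 123 and 90.6 TPM to 44.1 and 31.5 TPM (-1.55, SE 0.22). These 4 calls held without each library in turn. Usp28, a deubiquitinase, Abcg2, an efflux pump, and 2410007B07Rik fell too, each by at most 1.2 on the log2 scale and each losing its call without at least 1 library.

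The most abundant genes that rose were Gpx4, which removes lipid peroxides (803 and 581 to 1770 and 1620 TPM; 1.24, SE 0.17), and Trh, which encodes the precursor of thyrotropin-releasing hormone (404 and 599 to 1450 and 1740 TPM; 1.62, SE 0.19, edgeR adjusted p = 0.00338). Cd9 and Cd63, tetraspanins of the cell surface and of late endosomes, went from 449 and 410 TPM to 890 and 1270 TPM (1.28, SE 0.18) and from 325 and 325 TPM to 812 and 1170 TPM (1.56, SE 0.18). Cyr61, a matrix protein gene known as a Yap target, rose from 63.7 and 112 TPM to 449 and 745 TPM (2.71, SE 0.32), and Cstb, an inhibitor of cathepsins, from 186 and 181 TPM to 536 and 617 TPM (1.61, SE 0.14). The genes of tropomyosin 1 (Tpm1: 1.32, SE 0.34) and of the small heat shock protein Hspb1 (1.19, SE 0.29) also rose, but Tpm1 was lost without d2-FVFn replicate 1 (edgeR adjusted p = 0.161) or d2-FVFp replicate 2 (0.0601) and Hspb1 without either d2-FVFn library (0.0574 and 0.175) or, below 2-fold, d2-FVFp replicate 1.

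Libraries of a group differed more for the higher genes than for all genes tested, in both groups. Of the 901 higher genes, 97 were more than 2-fold higher in d2-FVFp replicate 2 than in replicate 1 and 9 the other way round, while 795 lay within 2-fold. In d2-FVFn, 89 of the same genes were more than 2-fold higher in replicate 2 and 38 in replicate 1. For the higher genes the shares were 10.8% (replicate 2) and 0.999% (replicate 1) in d2-FVFp, and 9.88% and 4.22% in d2-FVFn. Over all 12943 genes tested they were 3.17% and 1.76% in d2-FVFp, and 2.69% and 1.99% in d2-FVFn. More of the higher genes had a mean under 1 TPM in d2-FVFn (35.1%, beside 8.11% of all genes tested), and ratios of few reads vary more. Fgb, Kng1, Psca, Upk1b, Npy, Krt8 and Krt18 were among the 97, and Shh, Cdx2, Syn2 and Bmp7 were within 2-fold. Krt8 and Krt18 were higher in replicate 2 in both groups. Foxa2 itself was nearly equal in the d2-FVFp libraries, and the cause of the spread was not tested.

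Other gene families with a high share of calls encode surface and matrix receptors and metabolic enzymes. Over all genes tested 6.96% were called higher and 1.47% lower. Of 17 tested tetraspanins of the Tspan series 7 rose and none fell, led by Tspan18, Tspan12 and Tspan8, of which Tspan18 and Tspan12 (2.06 and 5.26 to 11.9 and 23.1 TPM; 2.2, SE 0.47) each missed the threshold without 1 d2-FVFn library (edgeR adjusted p = 0.0853 without replicate 2 and 0.0805 without replicate 1). Of 19 tested integrin genes 7 rose and none fell. Itgav, the alpha chain of vitronectin receptors, went from 5.34 and 5.57 TPM to 21.9 and 26.2 TPM (2.09, SE 0.16, edgeR adjusted p = 0.00118), and Itgb4, the beta chain of the laminin receptor in hemidesmosomes, from 2.38 and 1.79 TPM to 10.4 and 11.9 TPM (2.38, SE 0.22). Itga11 had no count in d2-FVFn and was at 0.85 and 1.13 TPM in d2-FVFp, at least 14.1-fold higher. Both Itga11 and Tspan18 were under 1 CPM in both d2-FVFn libraries and entered the test only through d2-FVFp.

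Of 19 tested cytochrome P450 genes 7 rose (36.8%) and none fell, beside 6.96% and 1.47% of all genes tested. Cyp26a1, Cyp4v3 and Cyp2d22 were under 1 CPM in both d2-FVFn libraries and entered the test only through d2-FVFp, which raises the share. Cyp26a1, which breaks down retinoic acid, went from 0.59 and 0.82 TPM to 9.46 and 8.43 TPM (3.59, SE 0.36, edgeR adjusted p = 0.00211). Cyp4v3 and Cyp2d22 remained under 3 TPM (3.97, SE 0.65, and 2.45, SE 0.5), and Cyp4v3 missed the threshold without d2-FVFn replicate 2 (edgeR adjusted p = 0.0541) and Cyp2d22 without either d2-FVFn library (0.0951 and 0.0555).

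Of 25 tested forkhead genes 6 rose, Foxa2 included, and 3 fell, beside 6.96% and 1.47% of all genes tested. Foxl1, Foxd2, Foxq1 and Foxl2os were under 1 CPM in both d2-FVFn libraries and entered the test only through d2-FVFp, which raises the share. Beside Foxj1, Foxl1, a factor of gut mesenchyme, had no count in d2-FVFn and was at 0.82 and 1.2 TPM, at least 8.6-fold higher, and Foxd2 and Foxq1 rose to means of 1.04 and 4.02 TPM. Foxq1 missed the threshold without d2-FVFn replicate 1 (edgeR adjusted p = 0.0588) and Foxd2 without either d2-FVFn library (0.0619 and 0.0564). The sixth, Foxl2os, is a transcript opposite to Foxl2, and reads of both strands cannot be told apart here. It lost its call without either d2-FVFn library or d2-FVFp replicate 2 (edgeR adjusted p of 0.0709 to 0.141). Among those that fell, Foxr2 kept its call without each library in turn, while Foxi3 and Foxn3 did not, with edgeR adjusted p of 0.152 and 0.0639 without d2-FVFn replicate 2.

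Families of basic cell function had no calls, while 6.96% of all genes tested were called higher and 1.47% lower. In edgeR the counts were 0 of 99 ribosomal protein genes, 0 of 39 proteasome subunit genes and 0 of 6 Mcm genes. Their median log2 fold changes were -0.05, -0.18 and -0.61, so the Mcm genes were shifted downwards without reaching 2-fold calls. With only 6 Mcm genes, 0 calls says little about that family. Of 333 tested Zfp zinc finger genes 4 rose and 7 fell (3.3% called), beside 6.96% and 1.47% of all genes tested.

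A minority of called genes lay next to a gene called in the same direction, at a larger share than all genes tested. Of 898 higher genes with a known position, 193 (21.5%) had a neighbour among the tested genes that was also higher, beside 13.3% of all tested genes. Of 188 lower genes 25 (13.3%) had a lower neighbour, beside 2.82%. Higher genes formed 14 runs of 3 or more, such as the keratins above, Col4a1, Col4a2 and Rab20 on chromosome 8, Trp53i11, Tspan18 and Cd82 on chromosome 2 and Dmrt3, Dmrt2, Smarca2 and Vldlr on chromosome 19. The runs were named after their values were seen, and with overlapping genes or shared reads neighbours are not independent.

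Many markers of other cells the sort could hold were at low levels, but not all. In neuroectoderm (4 tested) and mesoderm (2 tested) no gene was called, and Sox1, Mesp1 and Msgn1 were at or under 0.36 TPM. Tubb3 of the neuroectoderm list was at 90.3 and 96.6 TPM in d2-FVFn and 50.5 and 61.4 TPM in d2-FVFp. This gene passed adjustment in the negative direction under 2-fold (-0.79, SE 0.16, edgeR adjusted p = 0.0171). Nes was at 5.48 to 14.1 TPM, and Pax6 and Olig2 at 2.37 to 4.59 TPM. Of 5 tested trophoblast genes Eomes and Krt7 were higher, Eomes not without either d2-FVFn library (edgeR adjusted p = 0.0717 and 0.109), Tfap2c and Ascl2 were not called and Elf5 and Tpbpa were at or under 0.11 TPM. Cells were seeded without feeders for the 48 h, and of the fibroblast markers Col1a2 was lower (0.45 and 0.5 against 0 and 0.02 TPM), Dcn was too low for testing (10 and 16 counts against 4 and 1), Col1a1 and Acta2 were not called, and Col3a1, Lum and Postn were at or under 1.06 TPM. Of the 2-cell-like genes Zscan4c, Zscan4d, Zscan4f and Usp17la, which have near-identical copies, none was called with all 4 libraries in the fit, and 3 were called higher without d2-FVFn replicate 1, in which they were highest among the d2-FVFn libraries (Zscan4f at 25.5 and 3 TPM).

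The levels reached can be set beside those of the d3con group, Venus-positive control cells of the genotype Foxa2-Venus-KO/+ at day 3 of endoderm differentiation with 12 ng/ml Activin A on Wnt3a-producing feeder cells. Replicate 1 of this group was read with 75 bases and all d2 libraries with 50. These cells are of another line and culture and have a single working Foxa2 allele, so the values are given side by side without a test. Foxa2 itself was higher after doxycycline, at 164 ± 6.19 TPM (SD, n = 2) against 49.3 ± 12.7 TPM (SD, n = 3). Cer1 was at 1.81 ± 0.311 TPM in d2-FVFp and 546 ± 2.15 TPM in d3con, Lhx1 at 1.75 ± 0.841 and 230 ± 26.6 TPM, Gata4 at 5.61 ± 0.856 and 124 ± 41.6 TPM, and Sox17 at 0.375 ± 0.304 and 101 ± 34.9 TPM. These regulators lay far below their d3con levels while Foxa2 lay above its own.

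Krt8, at 885 ± 564 TPM in d2-FVFp and 1030 ± 287 TPM in d3con, and Sox9, at 5.21 ± 0.665 and 6.84 ± 0.84 TPM, were of similar level in both groups. Tph1 was at 8.71 ± 0.375 and 118 ± 77.6 TPM. Genes of the opposite kind were nearly silent in d3con: Fgb was at 153 ± 78.3 TPM in d2-FVFp and 0.02 ± 0.0346 TPM in d3con, Kng1 at 67.8 ± 35 TPM and 0 TPM, and Cdx2 at 7.37 ± 0.106 and 0.113 ± 0.163 TPM. Of the 24 largest rises other than Foxa2, 12 had a mean under 1 TPM in d3con and 4 had a higher mean in d3con than in d2-FVFp. Of the 15 largest falls, Fgf5, Car4, Fgf17, Foxr2, Grhl2, Ccno, Lef1, Fam111a and 4930526L06Rik had a higher mean in d3con than in d2-FVFp. Cdh9, Fgf15, Calml4, Soga3, Krt17 and Spon1 had a lower one. The rises were picked for high levels in d2-FVFp and the falls for levels lowered there. How both sets stand beside d3con therefore follows in part from that choice. No share over all genes tested is given for these counts. Fgf5 was at 3.08 ± 1.46 TPM in d2-FVFp and 441 ± 41.3 TPM in d3con, and Car4 at 23.9 ± 5.42 and 1690 ± 767 TPM.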

How the data were processed

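RNA of sorted cells was amplified with a low-input kit (SMART-Seq v4), which does not mark strand, and sequenced as single reads, of 50 bases in the 4 libraries compared and, by the effective lengths, of 75 bases in 1 d3con and 1 d3ko library. The authors aligned reads to mm10 (GRCm38) with STAR and quantified each library with RSEM, with versions not given in the sources used here. The deposited expected counts are estimated reads per gene, in which reads that match several genes are shared among them, and the deposited TPM values were scaled by the authors for gene length and library total. Per the labels, groups and replicate numbers come from the sample titles.

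Expected counts were rounded. Genes with at least 1 CPM in at least 2 of the 4 libraries entered the quasi-likelihood test of edgeR (version 4.0.16 in R 4.3.3) with TMM scaling. Genes under 1 CPM in both d2-FVFn libraries entered only through d2-FVFp, which can raise the share of a list called higher. Calls needed a Benjamini-Hochberg adjusted p under 0.05, computed over all genes tested, and more than a 2-fold change. Standard errors were derived from the fold change and its F statistic. The test was run on simulated data first. For genes without counts in d2-FVFn, the fold is a lower bound against 3 counts per library, and no list median changed when such genes were set at their bound. For genes with 1 to 3 counts, depth-scaled count ratios carry exact 95% intervals. Intervals and floors cover counting error only. In fits without 1 library, the lone sample is assumed to vary like the other group.

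Named genes are Foxa2, the 25 largest rises and 15 largest falls (groups not overlapping, mean of at least 5 TPM in the higher group), the 10 most abundant genes called in each direction, members of 24 gene lists, the top 3 genes of the 6 symbol families with the highest share called, and 6 promoters with the core. The members, lists and rules were chosen with earlier results of these data known. Alternatives were DESeq2 1.42.0, tests against a 2-fold change, other scaling and filters, limma 3.58.1 on log2(TPM + 1 or 0.1), all 14 libraries, a replicate block, an adjusted p under 0.01 and leaving out each library. A few results are not reported here. Positions and promoters are from RefSeq (GRCm38.p6).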

Additional observations from a re-analysis of the deposited data

How the results depend on the processing

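Foxa2 was called in every fit, and 148 higher and 3 lower genes were called by edgeR and in all 15 alternatives, among them 23 of the 25 largest rises and 2 of the 15 largest falls. No call among 313 named or listed genes was reversed. The counts of higher and lower genes were 221 and 12 with DESeq2 against a 2-fold change, 275 and 21 with edgeR against a 2-fold change, 428 and 42 when all 14 libraries were fitted together, and 397 and 55 at an adjusted p under 0.01. Lower genes numbered 330 without a filter and 100 with limma on log2(TPM + 1). Leaving out 1 library gave 456 to 963 higher and 92 to 253 lower genes, with the fewest calls when a d2-FVFn library was left out. The replicate number as a block gave 325 lower genes and 1172 higher ones. Same-numbered libraries deviated together with r of 0.288 across genes, but with 2 pairs and no label that ties them the numbers were not taken as pairs. For the starting level of called genes, the share of higher genes under 1 TPM in d2-FVFn was 50.2% and 51.3% in the DESeq2 and edgeR tests against a 2-fold change, 44% without a filter (33.4% of the genes then tested), 18.6% at a mean count of at least 50 (1.88%), 39.2% with the block, 29.5% with limma on log2(TPM + 1), 32% at an adjusted p under 0.01 and between 30.6% and 37.3% without single libraries. For neighbouring genes, the share of higher genes next to another was 9.05% and 10.5% in the tests against a 2-fold change (beside 3.37% and 4.18% of all genes tested there), 28.8% with the block (17%), 10.8% with all 14 libraries (5.84%), 18.3% with limma on log2(TPM + 1) (11.7%), 11.6% at an adjusted p under 0.01 (6%) and 14.8% to 21.7% without single libraries (6.83% to 14.2%). The cause of these shifts was not tested. With 2 libraries a group, the spread rests on few samples, and genes with few reads in d2-FVFn have folds known only by bounds or wide intervals.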

Other observations

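Beyond the gene lists, some genes that were switched on from no read at all were named after their values were seen. Of all 12943 genes tested, 19 had no count in either d2-FVFn library, and all 19 were among the 901 higher genes. Such a gene could be tested only if both d2-FVFp libraries had reads enough, so this number follows from the filter. Popdc2, a membrane protein of muscle, was at 3.19 and 2.92 TPM in d2-FVFp, at least 18.5-fold above the floor of 3 counts per library. Hcrtr1, an orexin receptor, was at 2.25 and 2.82 TPM, at least 15.7-fold higher. Nnmt, which methylates nicotinamide and is abundant in liver, was at 5.4 and 2.85 TPM, at least 10.9-fold higher. Upk3a, a uroplakin of the bladder lining like Upk1b, was at 2.75 and 2.55 TPM, at least 8.19-fold higher. Itih2, which encodes a heavy chain of a plasma protease inhibitor, and Usp18, an interferon-induced protease, followed at low levels, with bounds of 9.66-fold and 7.75-fold. All of these calls held without each library in turn.

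Notch effector genes were also chosen after their values were seen. Hes1, a bHLH repressor and common Notch target, rose from 9.43 and 8.88 TPM to 34.1 and 40.3 TPM (1.98, SE 0.2, edgeR adjusted p = 0.00213). Its relative Hey1 rose from 3.12 and 2.97 TPM to 9.5 and 5.42 TPM (1.24, SE 0.34), but missed the threshold without either d2-FVFn library or d2-FVFp replicate 1 (edgeR adjusted p of 0.177 to 0.201).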
